A study of Homo sapiens with 4 samples.

Results

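The metallothioneins and the metal exporters of HepG2 cells were followed as 10 genes chosen by name out of the 58302 genes of the files. They are the metallothioneins MT1A, MT1E, MT1F, MT1G, MT1M, MT1X and MT2A, the exporters SLC30A1 and SLC30A10, and the transcription factor MTF1, and all 10 were found. HepG2 is a line derived from a human hepatocellular carcinoma, labelled wild type, and polyadenylated RNA of it was sequenced after melatonin at 1 mM for 24 h or 48 h and after the solvent DMSO for the same times. There was 1 library for each of these 4 conditions, so the spread between cultures is unknown and no p-value was computed. Levels are given as FPKM, the reads on a gene divided by its length and by a library size, and their intervals are 95% exact Poisson intervals of the reads recovered from the FPKM, which cover counting error only. The reads on genes numbered 21616676 to 23086025 per library. Mitochondrial genes held at least 16.6% of them at 24 h and at most 11.9% at 48 h. Ratios were also computed with library sizes that leave out mitochondrial genes. Beyond that, the part of the mitochondrial share in the differences by time was not tested. All 10 hepatocyte markers examined had an FPKM of at least 10 in every library, with summed FPKM of 8533 to 10804. Of 12 markers of other cell types 5 had no read in any library, but LYZ, which encodes lysozyme, had an FPKM of 729 to 1069. ACTA2, the only other marker of the 12 to reach an FPKM of 1, was at 2.11 to 3.81. The leukocyte gene PTPRC was at 0.00589 or less. The melatonin over DMSO ratio of LYZ was 1.18 at 24 h and 1.45 at 48 h, and its part in the results was not tested.

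Metallothioneins are small cytosolic proteins whose many cysteines hold zinc and copper ions and also bind cadmium. When free zinc rises, the zinc finger protein MTF1 enters the nucleus and binds metal response elements in the promoters of metallothionein genes and of SLC30A1, which encodes the zinc exporter ZnT1 of the plasma membrane. SLC30A10 belongs to the same transporter family, and in hepatocytes its product exports manganese. The liver is a main site of metallothionein synthesis, where the genes also respond to glucocorticoids and to inflammation. The metallothionein genes of the MT1 series are unrelated to the melatonin receptor that is also called MT1.

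The 7 metallothionein members lie together on chromosome 16 of hg38 from 56608199 to 56684196, a stretch of 76.0 kb. MT2A (ENSG00000125148) runs from 56608199 to 56609497 on the forward strand and MT1X (ENSG00000187193) from 56682424 to 56684196 on the same strand. MT1G alone among the 7 is on the reverse strand, from 56666731 to 56668065. SLC30A1 (ENSG00000170385), SLC30A10 (ENSG00000196660) and MTF1 (ENSG00000188786) lie on the reverse strand of chromosome 1, from 211571568 to 211578742, from 219685427 to 219958647 and from 37809567 to 37859620. The coding sequences of MT2A and MT1X, from GENCODE 44, are shown because they make visible both the cysteines and the likeness of the paralogs. Capitals mark the codons TGC and TGT, which encode cysteine, and each sequence has 20 of them among 61 codons before the stop.
MT2A: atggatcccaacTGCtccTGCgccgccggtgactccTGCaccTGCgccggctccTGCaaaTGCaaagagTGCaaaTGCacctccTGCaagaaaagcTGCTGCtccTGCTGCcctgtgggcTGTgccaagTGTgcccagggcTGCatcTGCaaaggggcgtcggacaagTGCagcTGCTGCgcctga
MT1X: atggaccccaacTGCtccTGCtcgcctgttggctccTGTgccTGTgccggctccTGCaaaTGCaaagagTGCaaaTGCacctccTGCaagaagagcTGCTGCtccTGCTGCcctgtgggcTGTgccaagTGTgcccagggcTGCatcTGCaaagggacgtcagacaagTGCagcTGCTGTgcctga

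These coding sequences of 186 bases are 92.5% identical. Over the 10 pairs of metallothionein members with coding sequences of equal length, identity ran from 88.7% to 92.5%. MT1E, with a coding sequence of 384 bases in its main transcript, and MT1G, with 189, are in none of these pairs. Between the mRNAs of the 21 possible pairs, the longest run of identical bases was 32 to 96 bases, and 12 pairs shared a run of at least 50. The authors' counting could therefore have split reads between paralogs, and how reads that match several genes were treated is not given in the sources used here. The level of any single metallothionein is uncertain to that extent. Sums over the family do not depend on how the counted reads were split within it, but would miss any reads left uncounted.

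RefSeq promoters (GRCh38.p14, 250 bases before to 50 after the start) were matched to 5 of the 10 members, MT1X, MT2A, SLC30A1, SLC30A10 and MTF1, and not to MT1A, MT1E, MT1F, MT1G and MT1M. The core of the metal response element was searched on both strands as TGCACNC or TGCGCNC, forms that exclude each other at a position. Of 35116 promoters in the table, 29.6% held at least 1 match, so a match by itself is common. The promoters of MT2A and MT1X, the metallothioneins matched in the table, and of the exporters are printed 5′ to 3′ on the strand of the gene, with matches in capitals (those on the opposite strand read as the reverse complement).
MT2A, chr16:56608334-56608633, forward strand: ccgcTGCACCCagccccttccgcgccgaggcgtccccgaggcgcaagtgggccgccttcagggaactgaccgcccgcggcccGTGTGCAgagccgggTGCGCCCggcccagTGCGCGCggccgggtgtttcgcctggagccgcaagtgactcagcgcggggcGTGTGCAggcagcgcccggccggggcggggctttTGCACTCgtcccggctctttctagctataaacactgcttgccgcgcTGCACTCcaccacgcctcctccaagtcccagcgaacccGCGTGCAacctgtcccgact
MT1X, chr16:56682220-56682519, forward strand: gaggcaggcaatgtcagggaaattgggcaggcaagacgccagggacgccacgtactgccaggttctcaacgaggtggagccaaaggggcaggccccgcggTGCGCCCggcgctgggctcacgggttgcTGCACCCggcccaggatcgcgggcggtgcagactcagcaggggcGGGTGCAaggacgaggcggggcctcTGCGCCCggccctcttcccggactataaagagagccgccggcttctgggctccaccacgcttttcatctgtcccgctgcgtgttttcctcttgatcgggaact
SLC30A1, chr1:211579112-211579411, reverse strand: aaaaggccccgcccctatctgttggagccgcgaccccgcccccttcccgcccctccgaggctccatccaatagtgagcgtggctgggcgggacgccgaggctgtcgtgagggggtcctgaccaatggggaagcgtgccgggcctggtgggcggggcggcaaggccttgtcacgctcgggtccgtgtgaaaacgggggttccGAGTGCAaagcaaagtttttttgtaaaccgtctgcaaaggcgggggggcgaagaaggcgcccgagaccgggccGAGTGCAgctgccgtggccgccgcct
SLC30A10, chr1:219928508-219928807, reverse strand: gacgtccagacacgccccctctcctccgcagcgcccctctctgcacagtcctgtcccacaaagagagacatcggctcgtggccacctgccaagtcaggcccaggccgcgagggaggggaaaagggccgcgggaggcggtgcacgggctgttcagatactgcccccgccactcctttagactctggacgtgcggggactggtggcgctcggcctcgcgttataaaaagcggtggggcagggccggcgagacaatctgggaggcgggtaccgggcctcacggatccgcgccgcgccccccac

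The MT2A promoter held 8 matches, a number reached by 0.0199% of all promoters. That of MT1X held 4, reached by 0.601%, and that of SLC30A1 held 2, reached by 8.60%. No match was found in the MTF1 promoter or in either SLC30A10 promoter of the table, of which the printed one belongs to the main transcript. These are matches of letters in a window and not measured binding sites.

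MT2A was the most abundant metallothionein and was higher with melatonin at both times. Its FPKM was 14.2 (12.7 to 15.8) in DMSO-treated and 22.2 (20.4 to 24.1) in melatonin-treated cells at 24 h, with 338 and 585 reads behind them. The libraries of 48 h gave 14.3 (12.9 to 15.7) in DMSO-treated and 23.2 (21.5 to 25.1) in melatonin-treated cells, from 407 and 670 reads. Both melatonin libraries were high and both DMSO libraries low, with no overlap of the counting intervals. The melatonin over DMSO ratio was 1.57 (1.37 to 1.80) at 24 h and 1.63 (1.44 to 1.84) at 48 h. By the authors' library size the level was close at 24 h and 48 h within each treatment, with 48 h over 24 h ratios of 1.01 (0.870 to 1.17) for DMSO and 1.05 (0.935 to 1.17) for melatonin. These are averages over all cells of a culture, so more MT2A mRNA per cell and more cells with it cannot be told apart.

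**Figure D1:**
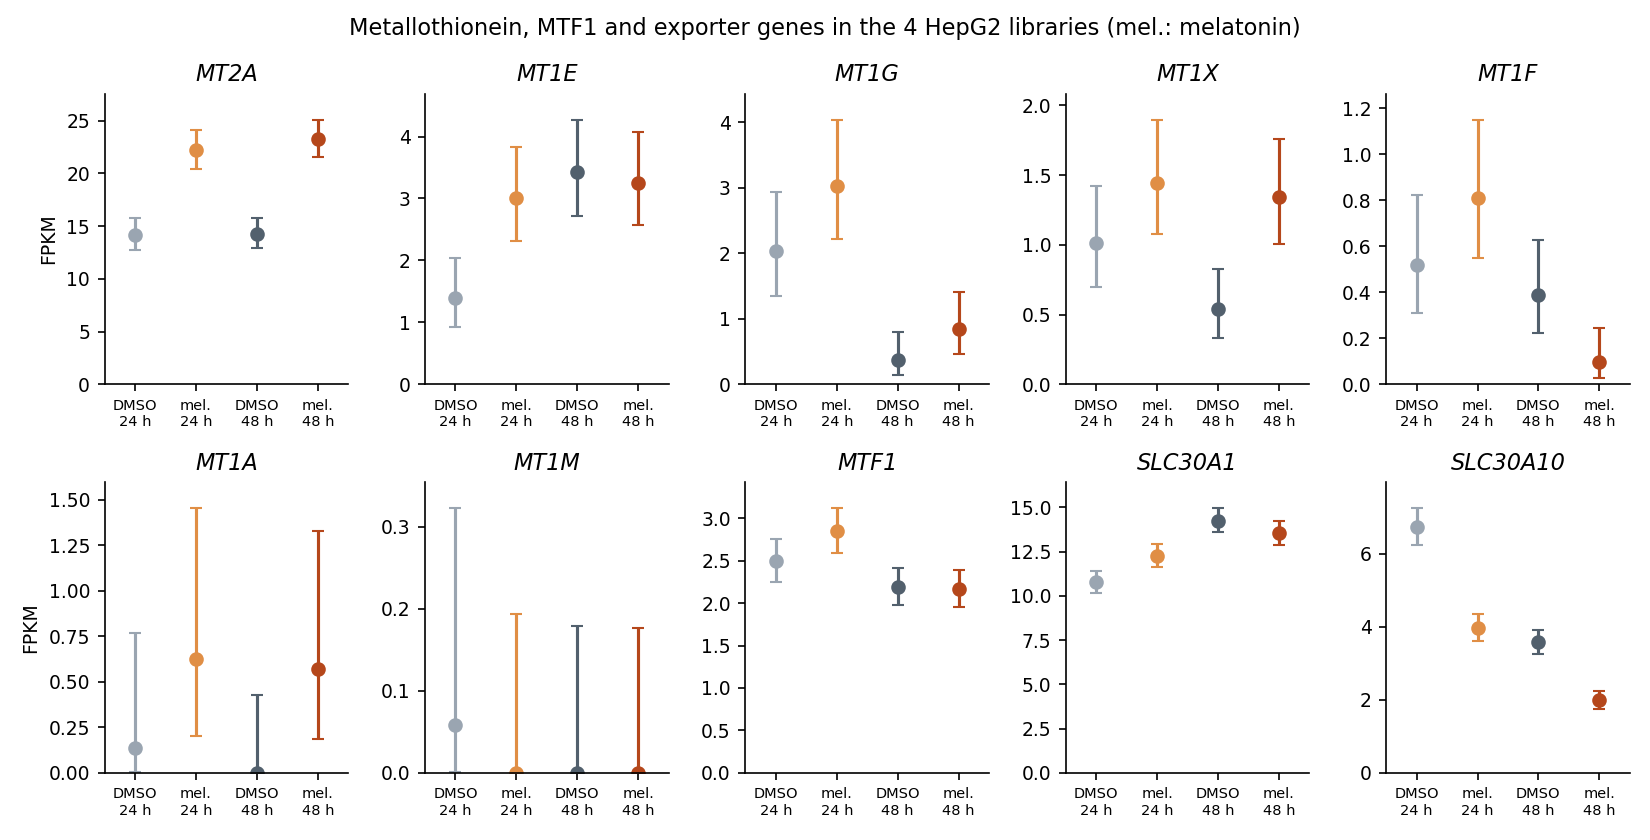
FPKM of each of the 10 genes in the 4 libraries, 1 point per library, on a linear axis from 0 that differs between panels; bars show the 95% Poisson counting interval. Both melatonin points of MT2A (22.2 and 23.2) sit above both DMSO points (14.2 and 14.3), and the melatonin points of SLC30A10 (3.96 and 1.99) sit below the DMSO point of the same time (6.73 and 3.57).

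MT1E, a metallothionein of the MT1 series, was lowest in the DMSO library of 24 h and similar in the other libraries. Its FPKM was 1.40 (0.921 to 2.03) in DMSO-treated and 2.999 (2.31 to 3.83) in melatonin-treated cells at 24 h, and 3.42 (2.71 to 4.27) in DMSO-treated and 3.25 (2.56 to 4.07) in melatonin-treated cells at 48 h. The ratio of melatonin over DMSO was 2.15 (1.35 to 3.4998) at 24 h, from 27 and 64 reads, and 0.950 (0.684 to 1.32) at 48 h, from 79 and 76 reads. The DMSO library of 48 h was 2.45-fold higher than that of 24 h (1.56 to 3.94), so the DMSO libraries differed from each other by as much as melatonin and DMSO did at 24 h.

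MT1X, at the far end of the cluster from MT2A, was lowest in the DMSO library of 48 h. Its FPKM was 1.01 (0.698 to 1.42) in DMSO-treated and 1.45 (1.08 to 1.90) in melatonin-treated cells at 24 h, and 0.540 (0.334 to 0.826) in DMSO-treated and 1.35 (1.01 to 1.76) in melatonin-treated cells at 48 h. The ratio was 1.43 (0.905 to 2.28) at 24 h and 2.49 (1.48 to 4.35) at 48 h, from 21 to 53 reads per library. The counting intervals of the libraries overlapped at 24 h and did not at 48 h.

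MT1G differed more by time than by treatment. Its FPKM was 2.03 (1.35 to 2.94) in DMSO-treated and 3.02 (2.21 to 4.03) in melatonin-treated cells at 24 h, against 0.365 (0.134 to 0.794) and 0.841 (0.460 to 1.41) at 48 h. Both libraries of 24 h were above both libraries of 48 h except that the interval of DMSO at 24 h overlapped that of melatonin at 48 h. The 48 h over 24 h ratio was 0.179 (0.0607 to 0.442) in DMSO-treated and 0.278 (0.141 to 0.515) in melatonin-treated cells. With melatonin over DMSO it was 1.49 (0.910 to 2.47) at 24 h and 2.30 (0.832 to 7.32) at 48 h, from as few as 6 reads, so a difference by treatment was not detectable at this depth.

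The remaining metallothioneins were under an FPKM of 1 in every library. MT1F had 18 and 31 reads with DMSO and melatonin at 24 h and 16 and 4 reads at 48 h, with ratios of 1.56 (0.845 to 2.96) and 0.247 (0.0601 to 0.765). It was the only metallothionein member with a ratio interval wholly under 1 in a comparison of melatonin with DMSO. MT1A had 1 and 5 reads at 24 h, a ratio of 4.53 with an interval from 0.506 to 214, and 0 and 5 reads at 48 h, which is at least 1.65-fold higher with melatonin when the DMSO library is set at a floor of 3 reads. The counting interval of that ratio starts at 0.905, so it does not exclude a lower level with melatonin. MT1M had 1 read with DMSO at 24 h and 0 in the other libraries, which allows an FPKM of up to 0.143 to 0.157 by the same floor. The MT1A and MT1M values are too few to order the libraries.

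Summed over the 20 metallothionein genes and pseudogenes of the files, metallothionein reads were higher with melatonin at both times. They numbered 24.5 CPM, reads scaled to a common library size (22.3 to 26.9), in DMSO-treated cells and 38.7 (36.0 to 41.5) in melatonin-treated cells at 24 h, with 450 and 785 reads behind them. The libraries of 48 h gave 24.1 (22.1 to 26.3) in DMSO-treated and 37.0 (34.5 to 39.6) in melatonin-treated cells, from 529 and 822 reads. The summed ratio was 1.58 (1.40 to 1.78) at 24 h and 1.53 (1.37 to 1.72) at 48 h. The 48 h over 24 h ratio of the sum was 0.984 (0.866 to 1.12) in DMSO-treated and 0.957 (0.866 to 1.06) in melatonin-treated cells. By the authors' library size the DMSO libraries thus lay together and the melatonin libraries lay together, without overlap between them. The sum was not rescaled to TPM, which is FPKM scaled to a common total in each library. For MT2A that scaling gave 48 h over 24 h ratios of 1.43 with DMSO and 1.27 with melatonin.

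MT2A made up most of the sum. Its share of the family's reads was 75.1% (DMSO) and 74.5% (melatonin) at 24 h, and 76.9% and 81.5% at 48 h, with exact binomial lower bounds of 70.8%, 71.3%, 73.1% and 78.7% in that order. Without MT2A the members summed to 108, 198, 122 and 152 reads in the same order, and the melatonin over DMSO ratio was 1.66 (1.31 to 2.12) at 24 h and 1.23 (0.963 to 1.57) at 48 h. At 48 h the higher sum with melatonin therefore rested mainly on MT2A. Of the 13 other metallothionein genes and pseudogenes in the files, which include MT1B, MT1H, MT3 and MT4, 12 had no read in any library. The pseudogene MT2P1 had 4 reads in the DMSO library and 2 in the melatonin library of 24 h, and 0 at 48 h.

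**Figure D2:**
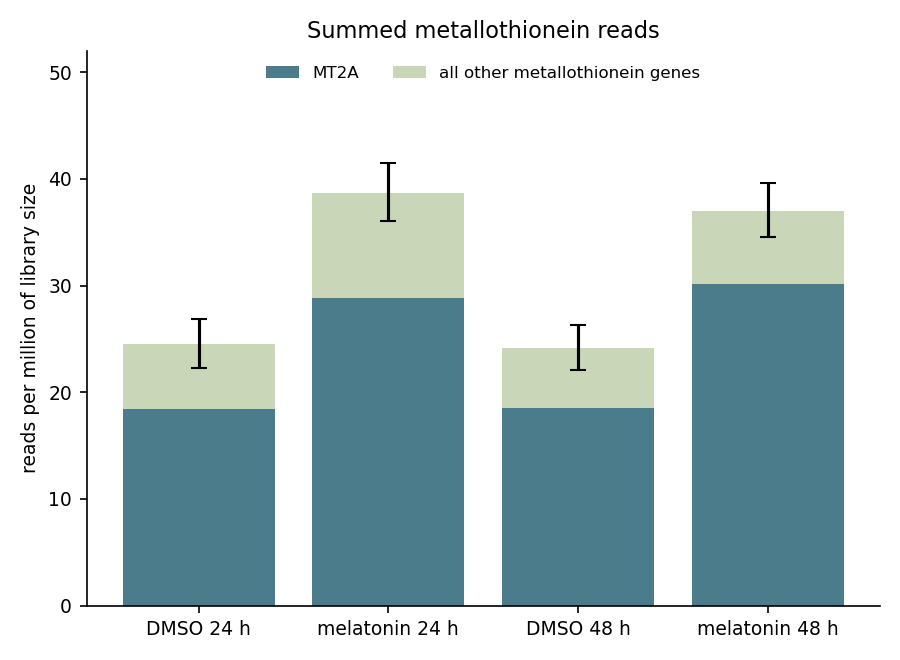
Reads on all 20 metallothionein genes in each library, in CPM, stacked as MT2A and all other metallothionein genes; the axis starts at 0 and bars are 95% exact Poisson intervals of the sum. The DMSO libraries reach 24.5 and 24.1 and the melatonin libraries 38.7 and 37.0.

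SLC30A1, the zinc exporter of the plasma membrane, showed a small difference by treatment and a larger one by time with DMSO only. Its FPKM was 10.8 (10.1 to 11.4) in DMSO-treated and 12.2 (11.6 to 12.9) in melatonin-treated cells at 24 h, and 14.3 (13.6 to 14.9) in DMSO-treated and 13.5 (12.9 to 14.2) in melatonin-treated cells at 48 h. The ratio of melatonin over DMSO was 1.14 (1.05 to 1.23) at 24 h and 0.950 (0.887 to 1.02) at 48 h. With DMSO the level at 48 h was 1.32-fold that at 24 h (1.23 to 1.43), and with melatonin 1.11-fold (1.03 to 1.19). With TPM these ratios by time were 1.88 and 1.34. The DMSO library of 24 h was the lowest of the 4, as it was for MT1E.

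MTF1, the zinc-sensing transcription factor, was at 2.49 (2.24 to 2.76) in DMSO-treated and 2.84 (2.59 to 3.12) in melatonin-treated cells at 24 h. At 48 h its FPKM was 2.19 (1.97 to 2.42) in DMSO-treated and 2.17 (1.96 to 2.39) in melatonin-treated cells. The ratio was 1.14 (0.993 to 1.31) at 24 h and 0.990 (0.858 to 1.14) at 48 h, from 367 to 463 reads per library. By the authors' library size, an increase of more than 1.31-fold at 24 h lies outside the counting interval, and at 48 h one of more than 1.14-fold does. These bounds leave out the spread between cultures, and TPM gave a ratio of 1.29 at 24 h. At 48 h the direction depended on the library size, with a ratio of 1.04 when the plain sum of reads without mitochondrial genes was used.

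SLC30A10, the exporter of manganese, was lower with melatonin at both times and also lower at 48 h than at 24 h. Its FPKM was 6.73 (6.25 to 7.24) in DMSO-treated and 3.96 (3.61 to 4.34) in melatonin-treated cells at 24 h, with 713 and 464 reads behind them. The libraries of 48 h gave 3.57 (3.25 to 3.92) in DMSO-treated and 1.99 (1.75 to 2.25) in melatonin-treated cells, from 452 and 255 reads. The DMSO library of 24 h was the highest and the melatonin library of 48 h the lowest, while the melatonin library of 24 h and the DMSO library of 48 h overlapped. The ratio of melatonin over DMSO was 0.589 (0.523 to 0.663) at 24 h and 0.557 (0.476 to 0.651) at 48 h. The ratio of 48 h over 24 h was 0.531 (0.471 to 0.598) in DMSO-treated and 0.502 (0.429 to 0.586) in melatonin-treated cells. With TPM these ratios by time were 0.753 and 0.608. The quotient of the melatonin ratios at 48 h and 24 h was 0.946 for SLC30A10 and 1.04 for MT2A, so for these 2 genes the treatment difference was of similar size at both times.

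**Figure D3:**
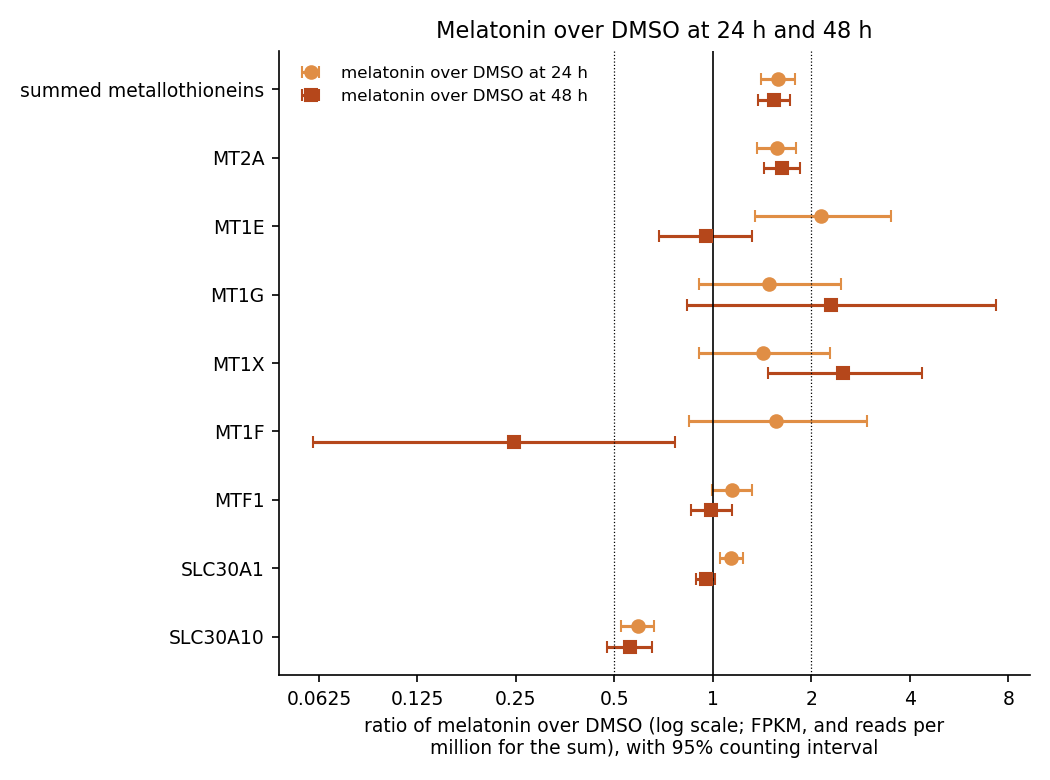
Ratio of melatonin over DMSO at 24 h (circles) and 48 h (squares) for the summed metallothionein reads and for the 8 members with reads in every library, on a log axis; bars are 95% exact counting intervals, and dotted lines mark 2-fold differences. MT2A lies at 1.57 and 1.63, SLC30A10 at 0.589 and 0.557, and the values of MT1E, MT1F, SLC30A1 and MTF1 fall on opposite sides of 1 at the 2 times.

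Across the whole table, genes that reached an FPKM of 1 in one or both libraries compared were taken as tested, and were counted as changed at a log2((FPKM + 1)/(FPKM + 1)) of at least 1 or at most -1, which makes differences of weakly expressed genes look smaller. With melatonin over DMSO at 24 h, 0 of the 7 members tested changed, against 4.35% of the 13582 genes tested. The members tested at 24 h were MT1E, MT1G, MT1X, MT2A, SLC30A1, SLC30A10 and MTF1. At 48 h, 0 of 6 changed, against 5.72% of 13805 genes, with MT1G under the minimum. Between the DMSO libraries 1 of 7 changed, against 7.74% of 13854 genes, and between the melatonin libraries 1 of 7, against 4.15% of 13489 genes. The member was MT1G both times, with log2 fold changes of -1.15 and -1.13 for 48 h over 24 h, and it was tested there only through the libraries of 24 h, where it was high. MT1A, MT1F and MT1M were not tested in any comparison.

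At a threshold of 1.5-fold on the same scale, MT1E, MT2A and SLC30A10 were past it at 24 h and MT1X, MT2A and SLC30A10 at 48 h. These are 3 of 7 members against 11.6% of all genes tested, and 3 of 6 against 18.7%. The log2 fold change of MT2A was 0.61 at 24 h and 0.66 at 48 h, and that of SLC30A10 was -0.64 and -0.61. Over the members tested the median log2 fold change was 0.28 at 24 h and -0.03 at 48 h, beside 0.02 and -0.02 over all genes tested. The log2 fold change was 0.74 at 24 h and -0.06 at 48 h for MT1E, 0.28 and 0.61 for MT1X, and 0.41 at 24 h for MT1G. MT1X was tested at 48 h only because its melatonin library, where it was high, reached the minimum, so the count and median of 48 h are a description and no support. Counting intervals alone separate many genes at this depth. The ratio interval excluded 1 for 4 of 7 members at 24 h and 3 of 6 at 48 h, while it did so for 50.6% and 62.2% of all genes tested, so these counts are near the background.

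By mean FPKM over the 4 libraries the order was MT2A (18.5), SLC30A1 (12.7), SLC30A10 (4.06), MT1E (2.77), MTF1 (2.42), MT1G (1.57), MT1X (1.09), MT1F (0.452), MT1A (0.332) and MT1M (0.0145). The ranges over the libraries overlapped between all neighbours in this order except SLC30A1 and SLC30A10. The order rests on the lengths in the files, which for 6 of the 7 metallothioneins are 1.41 to 4.44 times that of the main mRNA in GENCODE 44. The length of MT2A is 1299 bp, equal to the whole span of the gene with its introns, and the main transcript in GENCODE 44 has 401 bases in 3 exons. The length of MT1X is 1773 bp against 404 bases. With lengths of the main GENCODE 44 transcripts, picked with the values already known, MT2A had a mean of 59.8. MT1X moved from rank 7 to rank 3 with 4.77, MT1E stayed at rank 4 with 3.90, and SLC30A10 stood at rank 5. The main transcript of MT1E is unlike those of the other metallothioneins. It has 746 bases in 2 exons and 14 cysteine codons among 127, against 20 among 61 or 62 in the others. The order of MT1E and MT1X thus depends on the lengths used. Ratios between libraries do not depend on the length of a gene.

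The other zinc transporters were set beside the members from lists written by family. Of 9 other zinc exporters 5 were tested at each time, and none of them changed 2-fold with melatonin. Their median log2 fold change was 0.10 at 24 h and 0.29 at 48 h. SLC30A6, whose product forms a complex with that of SLC30A5 in the early secretory pathway, had an FPKM of 15.4 and 17.1 at 24 h and of 10.5 and 13.1 at 48 h with DMSO and melatonin. SLC30A5 itself had ratios of 0.936 and 1.23. SLC30A7, a Golgi transporter, went the other way at 48 h, from 7.32 to 5.41. SLC30A9, picked after its values were seen, had an FPKM of 3.80 with DMSO and 6.31 with melatonin at 48 h, a ratio of 1.66 (1.501 to 1.84).

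Of 14 zinc importers of the SLC39 family 11 were tested at each time, and none changed 2-fold with melatonin. The median log2 fold change was -0.13 at 24 h and -0.10 at 48 h, with 5 genes above 0 and 6 below at each time. SLC39A14, the most abundant of them, takes up zinc, manganese and iron in hepatocytes. Its FPKM was 142.7 (DMSO) and 118.3 (melatonin) at 24 h, and 223.7 and 147.6 at 48 h, a ratio of 0.829 (0.812 to 0.847) and 0.660 (0.649 to 0.671). SLC39A7, which releases zinc from the endoplasmic reticulum, had ratios of 0.881 and 0.858, and SLC39A4, a plasma membrane importer, had ratios of 0.900 and 1.21. SLC39A14 and SLC30A10 were both lower with melatonin at both times, by less than the 2-fold threshold. Of 5 manganese-handling genes 4 were tested, and their medians were -0.13 and -0.40. Among them SLC11A2, an iron and manganese transporter, had ratios of 0.777 and 0.729, and TMEM165, a Golgi protein, had ratios of 1.00 and 0.744. The other gene tested, ATP2C1, a calcium and manganese pump of the Golgi, was higher at both times, with ratios of 1.099 (1.02 to 1.19) and 1.13 (1.05 to 1.23).

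Copper binds metallothioneins as well, and 9 of 10 copper-handling genes were tested with none past the 2-fold threshold on the log2(FPKM + 1) scale. Their medians were 0.04 at 24 h and 0.07 at 48 h. CP, which encodes the copper carrier ceruloplasmin of plasma, had an FPKM of 56.9 (DMSO) and 28.4 (melatonin) at 24 h and of 53.8 and 32.0 at 48 h, with ratios of 0.500 (0.481 to 0.519) and 0.595 (0.575 to 0.616). At 24 h it was thus lower by 2-fold in FPKM, and its log2 fold change of -0.98 missed the threshold only through the pseudocount. SOD1, the copper and zinc superoxide dismutase, had ratios of 1.03 and 1.13, and SLC31A1, the copper importer, had ratios of 1.20 and 0.906.

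Among 11 glucocorticoid-responsive genes 8 were tested at each time and none changed 2-fold with melatonin, with medians of 0.15 and -0.01. ERRFI1, an inhibitor of the EGF receptor, had ratios of 1.34 at 24 h and 1.07 at 48 h. DUSP1, a MAP kinase phosphatase, had ratios of 0.655 and 0.578, and NFKBIA, the NF-kappaB inhibitor, 0.947 and 0.689. FKBP5, a co-chaperone of the glucocorticoid receptor picked after its values were seen, went the other way, with ratios of 1.27 (1.20 to 1.36) and 1.86 (1.72 to 2.01). Among 8 genes of the response to heavy metals and protein damage all 8 were tested, none changed 2-fold, and the medians were 0.08 and -0.06. The heat shock gene HSPA1B had a ratio of 1.09 (1.03 to 1.16) at 24 h and 1.86 (1.75 to 1.97) at 48 h, but it is near-identical to HSPA1A and reads could be split between them. HSPA1A had ratios of 1.03 and 1.46, and DNAJB1, a co-chaperone, 0.854 and 0.955.

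**Figure D4:**
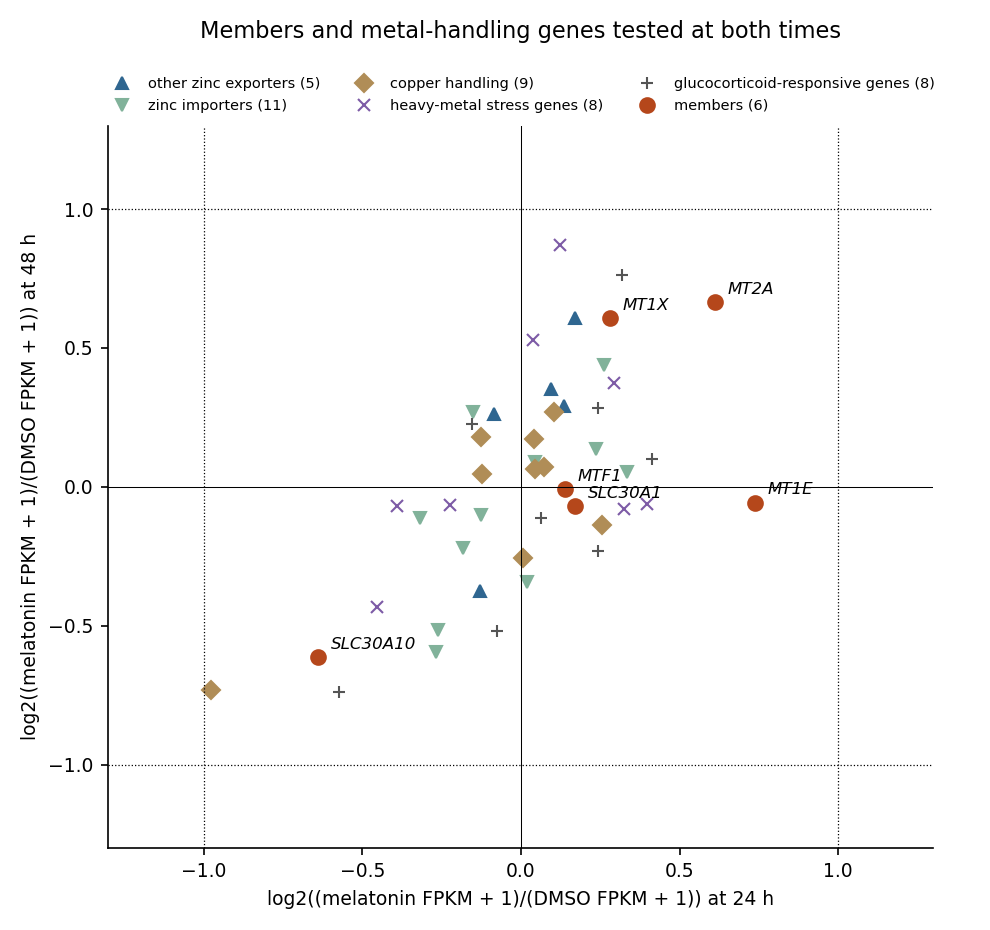
log2((melatonin FPKM + 1)/(DMSO FPKM + 1)) at 24 h against that at 48 h for the 6 members tested at both times and for other zinc exporters (5), zinc importers (11), copper-handling (9), heavy-metal stress (8) and glucocorticoid-responsive genes (8). Dotted lines mark 2-fold changes; MT2A (0.61 and 0.66) and MT1X (0.28 and 0.61) lie in the upper right, and SLC30A10 (-0.64 and -0.61) in the lower left.

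The metallothionein cluster was compared with its surroundings. Within 250 kb on either side, and inside it, the files list 18 genes that are no metallothioneins, of which 6 had an FPKM of at least 1 in any library. Their median log2 fold change with melatonin was -0.05 at 24 h and -0.01 at 48 h. NUDT21, a subunit of the mRNA 3′ end cleavage factor, had ratios of 1.00 and 1.00, OGFOD1 0.915 and 0.947, and NUP93, a nucleoporin, 0.925 and 1.15. BBS2, a protein of the primary cilium, had ratios of 1.39 and 0.980. HERPUD1, a protein of the endoplasmic reticulum stress response at the edge of the window, had an FPKM of 26.7 and 24.0 at 24 h and fell from 69.5 with DMSO to 25.3 with melatonin at 48 h, a log2 fold change of -1.42.

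The profile over the 4 libraries was also matched against other genes. The mean of the centred log2(FPKM + 1) profiles of the 4 metallothioneins with an FPKM of at least 1 in any library was -0.15 (DMSO) and 0.36 (melatonin) at 24 h, and -0.31 and 0.10 at 48 h. Among 10010 other genes with at least 200 reads in their highest library, the 5 at the smallest Euclidean distance were NBPF1, FUCA1, BORCS8, MPV17L2 and GLTPD2, at distances of 0.0189 to 0.0575. FUCA1, a lysosomal fucosidase, had an FPKM of 20.2 and 29.05 at 24 h and of 17.6 and 23.9 at 48 h with DMSO and melatonin. The 4 metallothionein profiles behind the mean differ from each other. MT1G was lower at 48 h, and MT1E was lowest with DMSO at 24 h. By the authors' library size MT2A was close at both times within each treatment. The nearest genes therefore match the mean and need not match any single metallothionein. With 4 libraries and this many genes, close matches are a description of the profiles.

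The hepatocyte markers also moved at 48 h. AFP, the fetal serum protein, had 1902 FPKM in the DMSO library and fell to 782 in the melatonin library, and TTR, a thyroid hormone carrier, rose from 50.6 to 255.6, while 8 of the 10 markers did not change 2-fold. At 24 h none of the 10 did. The part of these differences in the metallothionein and transporter values was not tested.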

How the data were processed

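The authors purified polyadenylated RNA, and their methods name MapSplice on hg38 for mapping and Cufflinks for expression, while the submitters' processing notes list Bowtie2 2.0.6, TopHat2 2.0.9, Cufflinks 2.1.1 and Cuffdiff 2.1.1 without their roles. The deposited values are FPKM per Ensembl gene, with a gene length in bp whose derivation is not stated. Multiplying FPKM by length gave whole multiples of a step fixed for each library, for 100% of values above 0 (tolerance 0.02 reads), which gave the reads and library sizes, 0.849 to 0.973 of the summed reads. Whether strand was used in counting is not given in the sources used here.

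The minimum for testing was an FPKM of 1 in one or both libraries compared, and the pseudocount was 1. Ratio intervals are exact conditional binomial intervals (95%), and the floor was 3 reads. All 10 members were to be named, with up to 3 genes of each other list by mean FPKM, the genes of a list changed 2-fold with melatonin, the 5 nearest profiles and the expressed neighbours, of which 1 is not reported here. Members and lists were chosen with earlier results of these data known. Coding sequences from GENCODE 44 are shown in place of proteins. MT1IP had no match. The comparisons share libraries. Calculations used Python 3.11.15, numpy 2.4.6, pandas 2.3.3 and scipy 1.17.1 and were tested on simulated data.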

Additional observations from a re-analysis of the deposited data

Results flagged for a closer look

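By the authors' library size, 3 members had melatonin over DMSO ratios on opposite sides of 1 at 24 h and 48 h. Their counting intervals did not overlap between the times. The ratio was 2.15 at 24 h and 0.950 at 48 h for MT1E, 1.56 and 0.247 for MT1F, and 1.14 and 0.950 for SLC30A1. With the plain sum of reads without mitochondrial genes, the 48 h ratio was 0.997 for both MT1E and SLC30A1, close to 1. The intervals of single genes were not recomputed with that library size. With 1 library per condition the difference between the times was not tested against a spread between cultures.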

How the results depend on the processing

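No member changed 2-fold with melatonin on the scale used, and this count depended on the setting. At 24 h it was 1 with a pseudocount of 0.1 (MT1E), 1 after rescaling to TPM (MT1E) and 3 at a 1.5-fold threshold. At 48 h it was 1 with a pseudocount of 0.1 (MT1X), 1 with TPM (MT1A), 1 with GENCODE 44 mRNA lengths (MT1X) and 3 at 1.5-fold. Between the DMSO libraries the count of 1 became 2 with a pseudocount of 0.1, 2 with TPM, 3 at 1.5-fold and 0 at a minimum FPKM of 5, where MT1G is no longer tested. Between the melatonin libraries it became 2 with TPM, 2 with mRNA lengths, 2 at 1.5-fold and 0 at that minimum. In the metal, glucocorticoid and stress lists together, without the cell type markers (45 genes tested at 24 h and 44 at 48 h), the count of 0 at 24 h became 1 with a pseudocount of 0.1 and 1 at 1.5-fold, and the count of 0 at 48 h became 6 at 1.5-fold. Without MT2A, the summed metallothionein ratio was 1.23 for melatonin over DMSO at 48 h and 0.701 for 48 h over 24 h with melatonin. TPM moved the median of all genes to 0.17 at 24 h and to 0.46 between the DMSO libraries, where MTF1 and MT1F turned direction and the log2 fold change between those libraries became 0.50 for MT2A and 0.88 for SLC30A1; MT1A and MT1X turned with TPM between the melatonin libraries. Under the 4 library scalings run, the melatonin over DMSO ratio of MT2A was 1.57 to 1.77 at 24 h and 1.57 to 1.71 at 48 h. That of SLC30A10 was 0.589 to 0.665 and 0.536 to 0.585. For 48 h over 24 h, SLC30A10 ran from 0.527 to 0.753 with DMSO and from 0.502 to 0.608 with melatonin, highest with TPM. The mRNA lengths and the sum without MT2A were chosen after seeing the data. Depth limits MT1A, MT1F, MT1G and MT1M most, with 0 to 46 reads per library. No analysis paired over replicates was possible because each condition has 1 library. With melatonin and DMSO paired by time, the log2 fold change averaged 0.64 for MT2A and -0.63 for SLC30A10, and a model of treatment and time over the 4 libraries was not fitted.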
